A study of Oryza sativa with 7 samples.

Results

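Transcript levels were examined for 5 rice genes, taken by their gene ID from every table that lists them, out of 26168 gene IDs listed in any table. They were the IPA1 clade of SPL genes, namely IPA1 (SPL14, LOC_Os08g39890), SPL17 (LOC_Os09g31438) and SPL7 (LOC_Os04g46580), together with TB1 (LOC_Os03g49880) and DEP1 (LOC_Os09g26999), for which promoter binding by IPA1 is known. RNA-seq was performed on cultivar Nipponbare (NIP) grown in a paddy field. Unelongated culms, the short stem bases of seedlings, came from 20-day-old wild type, mir156abckl (5 MIR156 genes mutated) and mir156defghi (6 mutated). Embryos of fresh wet seeds, taken just after seed filling, and shoots of 2-week-old seedlings came from the wild type and from mir156abcdfghikl (10 mutated). All mutations were made with CRISPR/Cas9, each mutant library set carries 1 line code, and the embryo and shoot sets of mir156abcdfghikl carry different codes. The methods state 3 biological repeats per group, but each deposited table gives 1 FPKM value per group (fragment counts scaled by transcript length and by the number of mapped fragments). No value below therefore has an error, no difference was tested, the depth behind each value is unknown, and whether 2 levels differ beyond the spread between plants cannot be judged.

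miR156 is a small RNA abundant in juvenile plants. It pairs with a site in the mRNAs of many SPL genes, which encode SBP-box transcription factors, and lowers their output by mRNA cleavage and by translational repression. IPA1 (ideal plant architecture 1) restrains tillering and promotes panicle branching, and its dominant alleles escape miR156. SPL17 is its closest relative with a similar role in panicle branching, and SPL7 also restrains tillering. TB1 encodes a TCP transcription factor that holds back the outgrowth of tiller buds. DEP1 encodes a G protein gamma subunit that sets panicle density and erectness.

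The mutations lie in the genomic sites that give the mature miR156. The edited sites below, from 1 listed line of each genotype, are shown as examples of the mutations in that genotype. Which listed line was used for RNA-seq is not stated in that list. They are printed in the direction of the mature RNA, and the capitals mark the longest stretch, 8 bases, found in at least 20 of the 21 edited alleles of these 3 lines.
mir156abckl, MIR156b: caGAAGAGAGtgagcaccacacgg
mir156abckl, MIR156k: gatgacaGAAGAGAGagagcagcgacga
mir156abckl, MIR156l: ccgacagagagtgagcatat
mir156defghi, MIR156d: tgacaGAAGAGAGtgacacggcgt
mir156defghi, MIR156g: gacaGAAGAGAGtgacacag
mir156abcdfghikl, MIR156b: caGAAGAGAGtgagcacaacacgg
mir156abcdfghikl, MIR156g: acaGAAGAGAGtgagcacagcgg
The MIR156l allele of mir156abckl is the one without it. The list marks deleted bases in 8 of the 21 alleles, up to 13 bases in MIR156k of mir156abckl.

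The tables list only genes that reach about 0.4 FPKM in one of their 2 groups, the lowest value of the higher group being 0.441, 0.447, 0.421 and 0.445 FPKM. IPA1, SPL17 and DEP1 were listed in all 4 tables. TB1 was listed in both culm tables, and SPL7 in the shoot table. The listings of SPL7 and SPL17 in shoots rest on the mutant alone, since their wild-type levels were below that limit, so that a ratio above 1 was fixed for these 2 genes by the listing itself. For SPL7, at 0.0813 FPKM in wild-type shoots, the listing even fixed a ratio of more than 4. Per the files, which place genes on TIGR release 7, IPA1 lies on chromosome 8 from 25274448 to 25278696, SPL17 on chromosome 9 from 18918259 to 18921656, SPL7 on chromosome 4 from 27614775 to 27618002, TB1 on chromosome 3 from 28428503 to 28430462 and DEP1 on chromosome 9 from 16411150 to 16415862. The files describe IPA1, SPL17 and SPL7 as SBP-box family members, TB1 as a TCP family transcription factor, and DEP1 as keratin-associated protein 5-4.

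In wild-type culms IPA1 stood at 14.2 FPKM, above TB1 at 5.72, SPL17 at 2.62 and DEP1 at 0.965 FPKM. IPA1 was thus higher than about 60.2% of the 23581 genes listed there, and DEP1 was higher than 8.53%. In wild-type embryos the order was IPA1 at 8.69, DEP1 at 5.21 and SPL17 at 2.45 FPKM. In wild-type shoots DEP1 led with 3.52 FPKM, followed by IPA1 at 1.07, SPL17 at 0.379 and SPL7 at 0.0813 FPKM. The IPA1 level thus ran from culm to embryo to shoot in falling order, whereas DEP1 was lowest in culms, with the reservation that culm, embryo and shoot tables were normalized separately. Within a single column, the FPKM of IPA1 was 5.40 times that of SPL17 in wild-type culms, 3.54 times in wild-type embryos and 2.83 times in wild-type shoots. These are bulk tissues, in which a change in the number of expressing cells and a change in RNA per cell cannot be told apart.

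**Figure D1:**
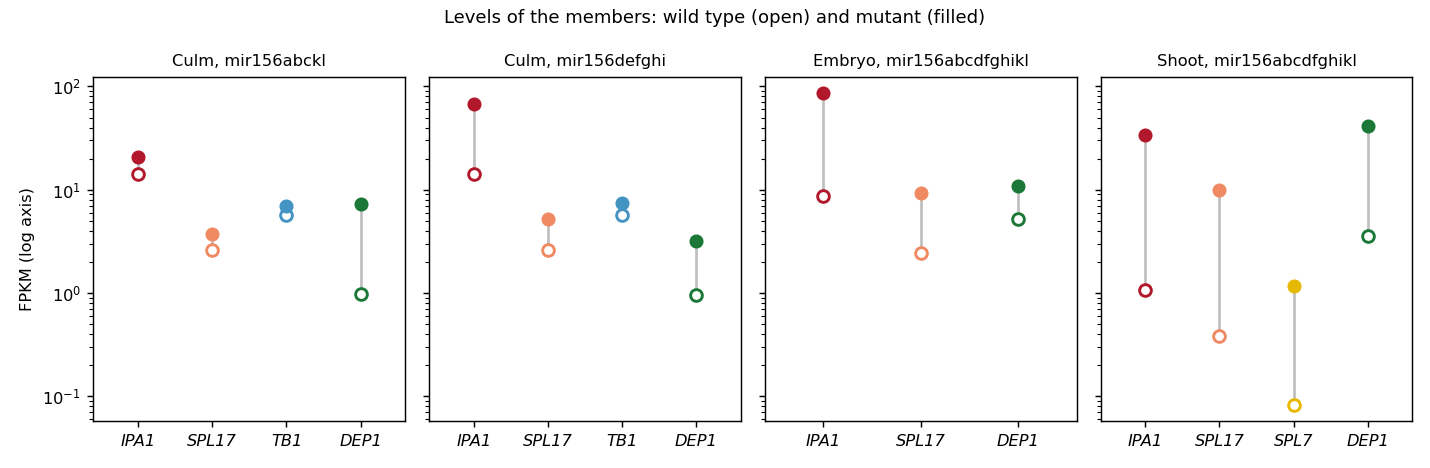
FPKM (log axis) of each listed member, with open points for the wild type and filled points for the mutant, 1 value per group, with a panel for each comparison. Every filled point lies above its open point, with the shortest distance for TB1 in mir156abckl culms (5.72 and 6.97 FPKM) and the longest for IPA1 in shoots (1.07 and 33.8 FPKM). Of all genes, 47.9%, 47.2%, 54.5% and 54.3% were higher in the mutant, in the order of the panels.

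The culm comparisons ask how the 2 MIR156 gene groups, mutated in separate lines, bear on the stem base. In mir156abckl culms, IPA1 was at 20.8 FPKM, 1.47 times the wild-type level of 14.2. SPL17, its paralog, was at 3.74 against 2.62 FPKM, a ratio of 1.43. TB1 was at 6.97 against 5.72 FPKM, a ratio of 1.22. None of these 3 reached the 2-fold limit of the study, and they took positions 3054, 3339 and 5340 in the descending order of the 23491 ratios. DEP1 differed from them, with 7.30 FPKM in mutant and 0.965 in wild-type culms. Its ratio of 7.56 (log2 ratio 2.92) was the 129th highest of the table. DEP1 moved from below every other listed member to a level close to that of TB1. Thus 1 of the 4 listed members was past the limit of a ratio of at least 2, beside 6.66% of all genes in that table, and 0 at a ratio of at most 0.5, beside 7.54%.

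In mir156defghi culms, IPA1 reached 68.2 FPKM against 14.1 in the wild type. Its ratio was 4.85 (log2 ratio 2.28), the 210th of 23418, and its level was above that of 93.5% of the listed genes. DEP1 stood at 3.20 against 0.959 FPKM, a ratio of 3.33 (log2 ratio 1.74) at position 451. SPL17 was at 5.23 against 2.61 FPKM, a ratio of 2.01 that lies just inside the limit, and the log2 ratio of 1.01 became 0.79, below it, once 1 FPKM was added to the mutant and wild-type values. TB1 was at 7.35 against 5.69 FPKM, a ratio of 1.29, and was the only listed member not past the limit. The count was 3 of 4 listed members, beside 5.72% of all genes, and 0 at a ratio of at most 0.5, beside 6.58%. OSH1, a class I KNOX gene of the meristem, was itself 29.9 FPKM for the wild type and 44.6 for mir156abckl, and 29.8 and 43.2 FPKM in the mir156defghi table. The 17 chlorophyll A-B binding protein genes, markers of green tissue, summed to 634 FPKM in the wild type and 939 in mir156abckl, and to 631 and 1153 FPKM in the mir156defghi table. The part of meristem or green tissue content in the culm values was not tested.

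Set side by side, the 2 culm mutants differed most in IPA1 and DEP1. The log2 ratio of IPA1 was 2.28 in mir156defghi and 0.56 in mir156abckl, a difference of 1.72 that ranked 395th from the top among 23136 genes. DEP1 had the opposite order, with 1.74 in mir156defghi and 2.92 in mir156abckl, a difference of -1.18 that ranked 696th from the bottom. The DEP1 ratio was thus 2.27 times higher in the mutant in which the IPA1 ratio was 3.29 times lower. The differences for SPL17 and TB1 were 0.49 and 0.08. The 2 tables share the wild-type libraries, whose values for the 4 members differed by a factor of 0.994 or 0.995, so each pair of mutant levels can be read directly. IPA1 was 20.8 FPKM in mir156abckl and 68.2 in mir156defghi, while DEP1 was 7.30 and 3.20 FPKM. Within the wild type the IPA1 level was 14.7 times that of DEP1. That quotient was 2.86 in mir156abckl and 21.3 in mir156defghi.

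Fresh seed embryos carry the decuple mutation, and the comparison bears on the seed dormancy studied in these plants. IPA1 was at 86.9 FPKM in mir156abcdfghikl embryos and at 8.69 in the wild type. The ratio of 9.99 (log2 ratio 3.32) was the 50th highest of 21466 genes, and the 7th when 1 FPKM was added to both groups. This was the highest IPA1 level in any column, although the tables were normalized separately. SPL17 was at 9.18 against 2.45 FPKM, a ratio of 3.74 (log2 ratio 1.90) at position 276. DEP1 was at 10.8 against 5.21 FPKM, and its ratio of 2.07 (log2 ratio 1.05) lay close to the limit. With 1 FPKM added, DEP1 came to 0.92, no longer past 2-fold. All 3 listed members were past the limit, beside 5.65% of all genes, and 0 were at a ratio of at most 0.5, beside 3.54%. TB1 and SPL7 were not listed. IPA1 grew relative to its paralog, from 3.54 to 9.47 times the level of SPL17, and relative to DEP1, from 1.67 to 8.07 times.

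The embryo label was checked by marker genes. The 6 listed oleosin genes, which coat seed oil bodies, summed to 34635 FPKM in wild-type and 28563 in mutant embryos, and were at most 8.06 FPKM in culms and shoots. Storage protein genes of the endosperm were also high in these embryo libraries. The 22 listed prolamin genes summed to 53594 FPKM in wild-type and 40041 in mutant embryos, and the 12 glutelin genes to 14302 and 12799 FPKM. The 16 chlorophyll A-B binding protein genes summed to 96.7 and 259 FPKM. The part of endosperm RNA or of green tissue in the embryo values was not tested.

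In seedling shoots, the ratios of IPA1, SPL17 and DEP1 were higher than in any other comparison. IPA1 was at 33.8 FPKM in mir156abcdfghikl and 1.07 in the wild type, a ratio of 31.5 (log2 ratio 4.98). SPL17 was at 10.01 against 0.379 FPKM, a ratio of 26.4 (log2 ratio 4.72). SPL7, the third gene of the clade, was at 1.16 against 0.0813 FPKM, a ratio of 14.3 (log2 ratio 3.84). The SPL7 values were the lowest of all members, and with 1 FPKM added its log2 ratio became 1.002 and its position moved from 1185 to 4987. DEP1 was at 41.3 against 3.52 FPKM, a ratio of 11.8 (log2 ratio 3.55). It was the most abundant listed member in both shoot groups, at 3.28 times the IPA1 level of the wild type and 1.22 times that of the mutant. TB1 was not listed in shoots.

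All 4 listed members were thus past the limit in shoots, beside 26.5% of all genes. The count includes SPL7, whose place past the limit was fixed by its listing. The shoot comparison was much wider than the others, with a further 23.2% of genes at a ratio of at most 0.5. Accordingly the shoot positions of IPA1 (620), SPL17 (706) and DEP1 (1369) among 22916 genes were less extreme than their ratios. The 17 chlorophyll A-B binding protein genes summed to 50102 FPKM in wild-type shoots and 8390 in the mutant, and the 12 late embryogenesis abundant genes to 1075 and 113 FPKM. OSH1 was not listed. The part of tissue make-up or developmental stage in the shoot values was not tested.

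**Figure D2:**
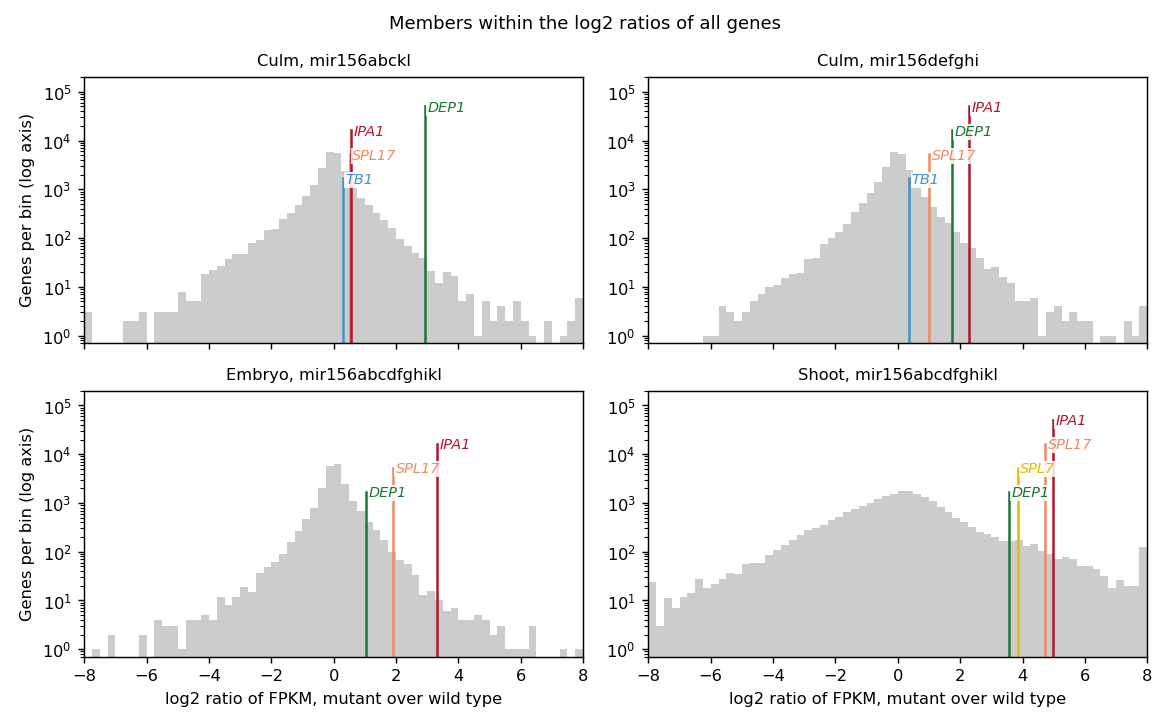
Number of genes (log axis) by log2 ratio of FPKM, mutant over wild type, in bins of 0.25 with values beyond 8 placed in the end bins, and with a coloured line for each listed member. IPA1 lies far out in the right tail in mir156defghi culms (2.28) and embryos (3.32), but within a broad right shoulder in shoots (4.98), and in mir156abckl culms (0.56) it lies next to the bulk.

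A ratio of FPKM depends on how the libraries were scaled, so the members were read beside the median of all genes. That median log2 ratio of all genes was -0.02 in mir156abckl culms, -0.03 in mir156defghi culms, 0.03 in embryos and 0.14 in shoots. When FPKM values were divided by their column sums instead, these medians became 0.10, 0.10, 0.26 and 0.57, and every member's log2 ratio rose by 0.11 to 0.43. Under that scaling the share of past-limit genes that were higher in the mutant went from 61.5% to 77.9% in embryos and from 53.4% to 68.7% in shoots. All 15 member ratios kept their direction and their side of the limit under it.

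The clade was then set against the other miR156 targets, SPL2, SPL3, SPL4, SPL11, SPL12, SPL13, SPL16 and SPL18. In mir156abckl culms 0 of these 8 genes were past the 2-fold limit in either direction, with a median log2 ratio of 0.25. In mir156defghi culms 2 of the 8 were at a ratio of at least 2, SPL13 (log2 ratio 1.61) and SPL3 (1.56), and the median was 0.21. In embryos 4 of 7 listed genes were past it, with a median of 1.13, and in shoots 7 of 8, with a median of 2.05. The shares of all genes at a ratio of at least 2 were 6.66%, 5.72%, 5.65% and 26.5% in the same order. The shoot count includes SPL16, at 3.24 against 0.266 FPKM, whose listing rests on the mutant alone. None of the 8 was at a ratio of at most 0.5 in any comparison, beside shares of all genes from 3.54% in embryos to 23.2% in shoots. IPA1 exceeded every one of them in mir156defghi culms and in shoots. In embryos SPL13, at 2.38 against 0.123 FPKM (log2 ratio 4.27), was above IPA1. Its wild-type value was below the listing limit of 0.421 FPKM, so its listing rests on the mutant alone, and with 1 FPKM added its log2 ratio was 1.59, below the 3.18 of IPA1. That listing also fixed the place of SPL13 past the 2-fold limit in embryos. In mir156abckl culms SPL3 (0.65) and SPL13 (0.58) were above IPA1 (0.56). The log2 ratio of SPL17 was below those of SPL3 and SPL13 in both culm mutants and in embryos. In shoots, at 4.72, it was above all 8.

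**Figure D3:**
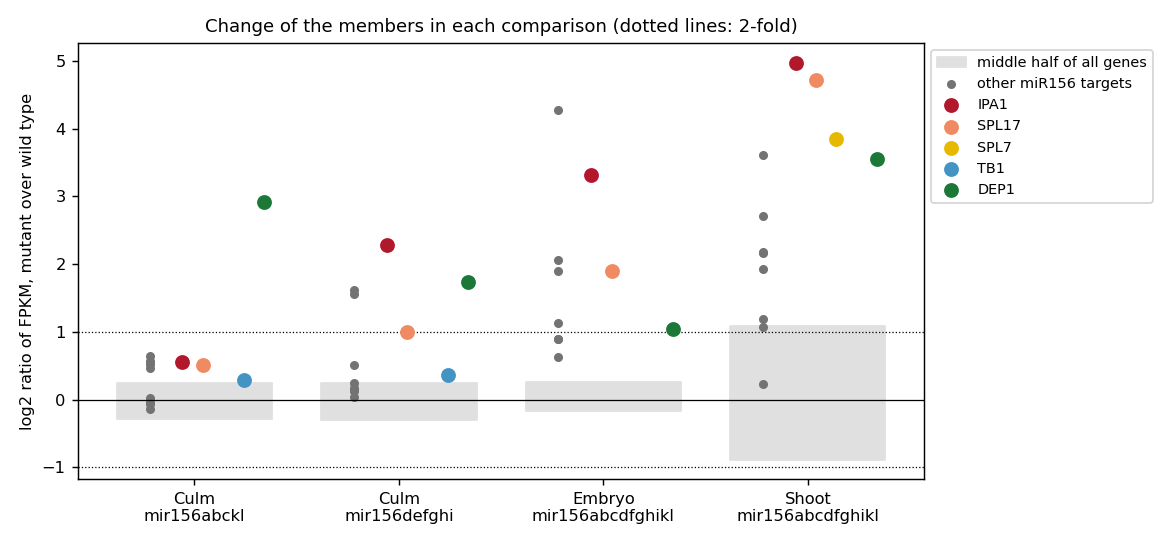
Log2 ratio of FPKM, mutant over wild type, of the listed members (coloured points) and of the other listed miR156 targets (grey points) in each comparison, with grey bands spanning the lower to the upper quartile of all genes and dotted lines at 2-fold. All clade points lie above the bands, and TB1 lies nearest to them, at 0.28 and 0.37.

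FPKM is scaled by transcript length, so levels can be summed over genes within a column. IPA1, SPL17 and SPL7 together made up 8.51% of the summed FPKM of the listed miR156 targets in wild-type culms, 10.6% in mir156abckl and 18.7% in mir156defghi. In embryos the clade share was 33.1% for wild-type and 61.8% for mutant plants. In shoots it was 2.05% and 15.3%. The clade therefore held a larger part of the target transcripts in each mutant than in its wild type, and a majority of them in mutant embryos only. SPL17 did not share this in every comparison. Its own share went from 7.28% to 5.90% in embryos and stayed at 1.33% in mir156defghi culms. It rose from 1.33% to 1.61% in mir156abckl culms and from 0.506% to 3.40% in shoots.

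The summed clade FPKM was 1.47 times the wild-type sum in mir156abckl culms, where the sum of the other targets was 1.15 times its own. These quotients were 4.40 and 1.78 in mir156defghi culms, 8.62 and 2.63 in embryos, and 29.3 and 3.40 in shoots. Of the total FPKM gained by all targets, the clade accounted for 22.6%, 28.8%, 69.7% and 19.8% in the same order. In shoots the clade thus had its highest ratio but its lowest share of the gain, since SPL3 alone was at 82.5 against 18.4 FPKM and SPL12 at 64.1 against 16.8. By level, IPA1 was the highest target in both embryo groups. It went from position 8 to 3 among the targets in shoots, from 5 to 3 in mir156defghi culms and from 5 to 4 in mir156abckl culms.

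**Figure D4:**
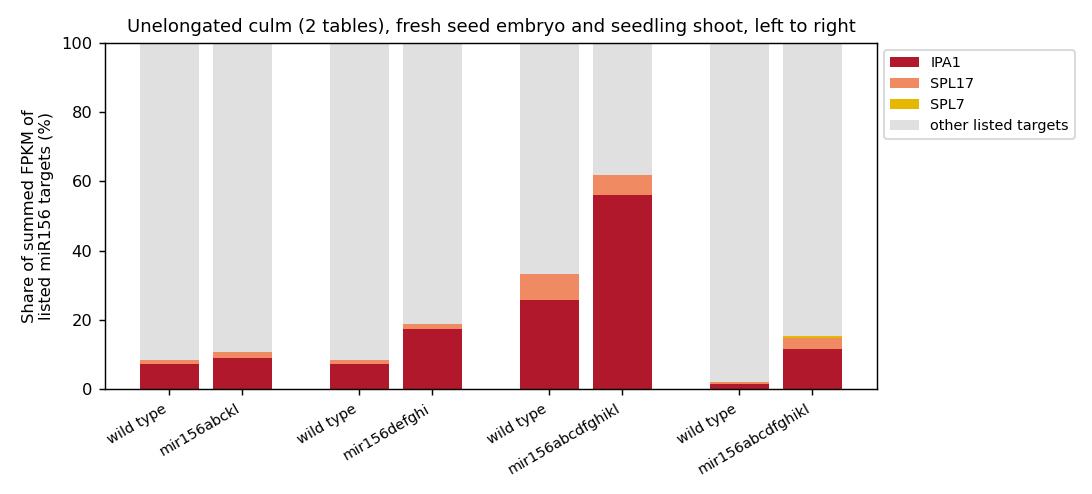
Percentage of the summed FPKM of all listed miR156 targets held by IPA1, SPL17, SPL7 and the other targets in each group, 1 value per group. The coloured part is tallest in mutant embryos (61.8%) and shortest in wild-type shoots (2.05%), and IPA1 makes up most of it in every bar.

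SPL genes without a miR156 site were used as family members outside the control of the small RNA. Of 8 such genes, those with a ratio numbered 6 in mir156abckl culms, 5 in mir156defghi culms, 5 in embryos and 6 in shoots. A ratio of at least 2 was found for 1, 0, 0 and 1 of them, beside 6.66%, 5.72%, 5.65% and 26.5% of all genes. A ratio of at most 0.5 was found for 0, 1, 0 and 0, beside 7.54%, 6.58%, 3.54% and 23.2% of all genes. Their median log2 ratios were 0.01, -0.11, 0.22 and 0.42. The shoot count and median leave out SPL10 and SPL5, which were listed at 0 in the wild type and at 9.68 and 6.12 FPKM in the mutant, so that the removal followed the change itself. With 0.1 FPKM added, which keeps both, 3 of 8 were at a ratio of at least 2, beside 26.6% of all genes, and the median was 0.67. For SPL10 and SPL5 that place was in turn fixed by the listing, since a gene at 0 in the wild type must reach 0.445 FPKM in the mutant. The number past the limit in shoots is therefore biased by either treatment of these genes. Division by column sums gave 2 of 6, beside 37% of all genes. In mir156abckl culms SPL8, at 1.24 against 0.259 FPKM (log2 ratio 2.26), was above IPA1 (0.56) and SPL17 (0.51). Its wild-type value was below the listing limit of 0.441 FPKM, so a ratio above 1 was fixed by the listing. With 1 FPKM added, the count at a ratio of at least 2 in these culms was 0, beside 3.17% of all genes. Some family members without a site and with both values above the listing limit were also higher, such as SPL15 at 105 against 91.3 FPKM in mir156abckl culms. In contrast, 3 of the 6 in mir156abckl culms and 4 of the 5 in mir156defghi culms were lower. These counts are too small to be told from the shares of all genes.

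TB1 belongs to the TCP family, of which 14 other genes are described as such in the files and 12 were listed in each table. In mir156abckl culms 2 of the 12 were at a ratio of at least 2 and 1 at a ratio of at most 0.5, and in mir156defghi culms 3 and 2 were. The shares of all genes were 6.66% and 7.54% in mir156abckl, and 5.72% and 6.58% in mir156defghi. LOC_Os04g44440 was at 4.95 against 0.864 FPKM in mir156abckl and 3.51 against 0.860 in mir156defghi, the highest ratio of the family in both. LOC_Os01g11550 was at 3.16 against 0.976 and at 2.70 against 0.970 FPKM. TB1 stayed below 2-fold in the same tables, while LOC_Os09g24480 was lower in both mutants, at 0.369 against 1.08 and 0.294 against 1.07 FPKM. Both mutant values were below the listing limits of 0.441 and 0.447 FPKM, so a ratio below 1 was fixed by the listing. The 2 comparisons also share their wild type. With 1 FPKM added, 0 TCP genes in mir156abckl and 1 in mir156defghi were at a ratio of at most 0.5, beside 4.5% and 3.44% of all genes. In embryos 0 of 12 TCP genes were past either limit, beside 5.65% and 3.54% of all genes. In shoots 9 of 12 were at a ratio of at least 2 and 0 at a ratio of at most 0.5. The shares of all genes there were 26.5% and 23.2%. The median log2 ratio of the 12 was 1.88, and LOC_Os01g11550 was at 133 against 1.58 FPKM. The 9 include LOC_Os04g44440, whose wild-type shoot value of 0.0836 FPKM was below the listing limit of 0.445 FPKM. Its place past the 2-fold limit in shoots was therefore fixed by the listing. TB1 itself was not among the listed genes in shoots or embryos.

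Taking the culm tables one at a time, because they share a wild type, genes were counted that were at a ratio of at least 2 in culms, embryos and shoots alike. With mir156abckl culms these were 119 of 19353 genes, or 0.615%, and DEP1 was among them. With mir156defghi culms they were 96 of 19328 genes, or 0.497%, and IPA1, SPL17 and DEP1 were among them. By the smallest of its 3 log2 ratios (2.28), IPA1 was 7th of those genes. SPL17 (1.01) and DEP1 (1.05) were near the limit, at positions 93 and 82. DEP1 was thus the only member past 2-fold in all 4 tables, and its smallest ratio was in embryos. At a stricter ratio of at least 4, the members past the limit were DEP1 in mir156abckl culms (beside 1.56% of all genes), IPA1 in mir156defghi culms (beside 1.29%) and in embryos (beside 1.12%), and all 4 listed members in shoots (beside 13.1%). For SPL7 in shoots this too was fixed by its listing.

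The genes whose 4 log2 ratios were most like those of IPA1 and DEP1 were found by Euclidean distance over the 4 comparisons, of which 2 share a wild type, among 17666 genes. Nearest to IPA1 were LOC_Os05g51740, described as a CLAVATA1 precursor receptor kinase (distance 1.89), SPL17 (1.92) and LOC_Os03g46350, a putative transcription factor (1.97), against a median distance of 6.26. Nearest to DEP1 were LOC_Os08g37890 (0.93), LOC_Os05g32130 (0.95) and LOC_Os01g63310, a DUF740 domain protein (0.98), against a median of 4.92. With 1 FPKM added to both groups, 3 other genes were nearest to IPA1, whereas LOC_Os01g63310 and LOC_Os05g32130 stayed among the nearest 3 of DEP1.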

How the data were processed

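The authors prepared stranded mRNA libraries (TruSeq), filtered the reads, aligned them with Hisat2 at default parameters to TIGR release 7, and obtained the deposited FPKM values with Cufflinks (2.2.1 in the submitters' processing notes) and cuffdiff. Each of 4 tables holds 1 pooled FPKM per group, normalized within that table. The authors' own log2 ratio, direction, p-value and q-value columns were not used. Depth per library is unknown, since no counts were at hand. Ratios of mutant to wild type were formed with nothing added, over genes above 0 in both groups, and past the limit means at least 2 or at most 0.5, the ratio limits of the study. Python 3.11.15, numpy 2.4.6, pandas 2.3.3 and matplotlib 3.10.9 were used, and the counting step was tested on simulated data. The members and gene lists were chosen with earlier results of these data known. Named genes were the 5 members, other miR156 targets where a count or an order is given, the 3 nearest genes to a member listed in all tables, and in each comparison up to 3 TCP genes that passed a limit and reached 1 FPKM. The names TB1 and DEP1 are those in common use for these gene IDs, for which the files give other descriptions. The alternatives were 1 or 0.1 FPKM added, centring on the median, division by column sums, a minimum of 1 FPKM, ratio limits of 1.5 and 0.75 or 4 and 0.25, and target sums over genes listed in all tables.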

Additional observations from a re-analysis of the deposited data

How the results depend on the processing

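All 15 member ratios were above 1 under both added values and both rescalings. Adding the same value to both groups cannot change the direction of a ratio. For SPL17 and SPL7 in shoots, the direction was fixed by the listing itself. Of the 15 member ratios, 13 kept their side of the 2-fold limit with 1 FPKM added, 14 with 0.1 FPKM added, and 15 with centring on the median or division by column sums. The exceptions were SPL17 in mir156defghi culms, whose log2 ratio was 0.79 with 1 FPKM and 0.98 with 0.1 FPKM added, and DEP1 in embryos, at 0.92 with 1 FPKM added. With ratio limits of 4 and 0.25, the members past the limit fell to 1 in mir156defghi culms, beside 1.29% of all genes, and to 1 in embryos, beside 1.12%, both being IPA1. With 1 FPKM added, the shoot log2 ratios of SPL17 and SPL7, whose wild-type values were under 1 FPKM, became 2.998 and 1.002, and that of IPA1 became 4.07. The clade share moved little when summed over the 9 targets listed in all tables. The promoter motif search was not run, as no promoter sequence was used here. Leaving out a repeat could not be done with 1 value per group. No paired analysis was possible because the tables carry no values per repeat.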

Other observations

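IPA1 was detected by ChIP-qPCR at the promoters of 14 GA genes, a list the study chose on these samples and so no independent evidence of a direction. The ChIP-qPCR used seedling shoots overexpressing FLAG-tagged IPA1 in a cultivar other than Nipponbare, not the mutants, culms or embryos compared here. In culms 1 of 14 was at a ratio of at least 2 and 1 at a ratio of at most 0.5 in mir156abckl, and 1 and 0 in mir156defghi, with median log2 ratios of -0.00 and -0.18. The shares of all genes were 6.66% and 7.54% in mir156abckl, and 5.72% and 6.58% in mir156defghi. With 1 FPKM added, the mir156abckl counts became 0 and 0, beside 3.17% and 4.5% of all genes under that setting. In embryos 1 of 13 listed genes was at a ratio of at least 2 and 5 were at a ratio of at most 0.5, with a median of -0.88, beside 5.65% and 3.54% of all genes. These counts became 3 and 3 with division by column sums, beside 8.44% and 2.39% of all genes under that setting. With 1 FPKM added they became 1 and 2, beside 1.97% and 1.46%. In shoots the counts were 1 and 6 of 13, with a median of -0.80, beside 26.5% and 23.2% of all genes. Division by column sums gave counts of 3 and 4, beside 37% and 16.9% of all genes. GA2ox6, which encodes a GA-deactivating enzyme, was the gene at a ratio of at least 2 in both culm tables and in embryos, at 3.68 against 1.13 FPKM in embryos, and was 7.81 against 10.6 FPKM in shoots.

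The nearest listed genes on each side of the members were looked up after the values had been seen. LOC_Os08g39880, a G-patch domain gene 819 bases from IPA1, had log2 ratios of -0.29, -0.20, -0.35 and 0.14 in mir156abckl culms, mir156defghi culms, embryos and shoots. On the other side of IPA1, LOC_Os08g39930 had 0.64 and 0.43 in the culm tables and was at 5.59 FPKM in mutant shoots and listed at 0 in the wild type, and LOC_Os08g39950 had 0.75 in embryos. Both neighbours of SPL17 were at a ratio of at least 4 in mutant shoots, as SPL17 was, beside 13.1% of all genes. LOC_Os09g31430, a beta-glucosidase gene, was at 54.8 against 2.36 FPKM (log2 ratio 4.53), and LOC_Os09g31446 at 9.39 against 0.477 FPKM (4.30). In embryos the same genes had log2 ratios of -1.38 and 1.72, in mir156abckl culms 0.84 and 0.02, and in mir156defghi culms 1.52 and 0.58. The neighbours of SPL7 had 0.46 and 1.45 in shoots. Those of TB1 had 0.01 and -0.14 in mir156abckl culms, and -0.64 and -0.22 in mir156defghi culms. The nearest listed neighbours of DEP1 were lower in the mutant in every table, with log2 ratios from -1.03 to -0.29 in culms and embryos, and of -1.21 and -1.68 in shoots.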
